A study of Mus musculus with 22 samples.

Results

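The ADAMTS proteases (a disintegrin and metalloproteinase with thrombospondin motifs) were followed in stromal cells sorted from mouse tumors. The 10 members, *Adamts1*, *Adamts2*, *Adamts4*, *Adamts5*, *Adamts7*, *Adamts9*, *Adamts10*, *Adamts12*, *Adamts14* and *Adamts15*, were taken by gene symbol from the 41388 genes counted, and all 10 passed the filter on low counts that left 15018 genes for testing. The hosts were C57BL/6 mice at postnatal day 56 carrying an Osx-cre transgene and the Ai9 reporter, in which Cre driven by the osterix (*Sp7*) promoter switches on TdTomato (TdT) for good, in that cell and its descendants. Wild type mice were Osx-cre;Ai9, and Cdh2-cKO;Ai9 mice carried in addition a conditional deletion of *Cdh2*, which encodes N-cadherin, in Cre-expressing cells. Doxycycline represses Osx-cre, and after its first experiments the study used mice fed doxycycline up to weaning; the labels give no diet. The tumor line carried GFP, and GFP+ tumor cells were separated off before the sort. Cells were sorted 2 weeks after inoculation by TdT and by CD45, the pan-leukocyte surface protein, into TdT single positive (Osx+ CD45-), double negative (Osx- CD45-), double positive (Osx+ CD45+) and CD45 single positive (Osx- CD45+) populations. Each genotype gave 2 TdT single positive libraries and 3 libraries per remaining population, so that 10 libraries were CD45- and 12 were CD45+. The labels of the libraries name orthotopic MMTV-BO1 tumors, whereas the design text of the series names subcutaneous tumors. The labels tie no library to a mouse, so libraries of different populations may share animals, and every p-value measures the spread between these libraries.

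ADAMTS enzymes are secreted zinc metalloproteases that are made as inactive proforms, are activated by furin-like convertases and act on the extracellular matrix. *Adamts1*, *Adamts4*, *Adamts5*, *Adamts9* and *Adamts15* encode proteoglycanases that cut versican or aggrecan. *Adamts2* and *Adamts14* encode procollagen N-proteinases, which trim the amino-terminal propeptide of fibrillar collagens, *Adamts7* and *Adamts12* encode enzymes that cut cartilage oligomeric matrix protein (COMP), and *Adamts10* encodes a fibrillin-binding member. In tumors and other connective tissue, fibroblasts are a well-known source of many of these enzymes.

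Libraries held 16594228 to 26784003 counted reads, and 3 counts, the smallest signal taken as present, corresponded to 0.103 to 0.201 normalized CPM. This floor covers counting error only. Summed over 5 leukocyte markers (*Ptprc*, *Laptm5*, *Coro1a*, *Cd52*, *Tyrobp*), the CD45+ libraries had 7800 to 9590 normalized CPM and the CD45- libraries 40.6 to 4600. The highest CD45- value was that of wild type double negative replicate 3, and 4 other CD45- libraries lay between 797 and 2930. Summed over 5 fibroblast markers (*Col1a1*, *Col1a2*, *Pdgfra*, *Dcn*, *Lum*), CD45- libraries had 3230 to 44300 CPM and CD45+ libraries 47.2 to 162. Among CD45+ libraries, wild type CD45 single positive replicate 2 stood apart, with 1820 CPM of *Ptprc* where the other 11 had 472 to 711. *Cdh2* was not lower but higher in the CD45- libraries labelled Cdh2-cKO: TdT single positive libraries had 17.2 and 13.1 CPM against 9.13 and 5.19 in wild type. Double negative libraries had 12.5, 18.4 and 14.2 CPM against 6.02, 7.47 and 4.52. The cause of these higher values, present in TdT- cells too, was not tested. Since the deleted exon is not given in the sources used here, reads outside it check nothing, and every direction between genotypes below is one between libraries labelled Cdh2-cKO and libraries labelled wild type.

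The ADAMTS family was abundant in CD45- cells and low in CD45+ cells, where *Adamts10* held the largest part of it. Levels were compared between genes as normalized RPKM, the TMM-normalized CPM per kilobase of exon. The 10 members summed to between 17.8 and 195 RPKM in CD45- libraries (median 70.9) and to between 1.91 and 6.80 RPKM in CD45+ libraries (median 3.00). In CD45- cells *Adamts2* (median 25.6 RPKM) and *Adamts4* (18.0) led, and together with *Adamts1* (6.11) they were ahead of *Adamts14* (5.03), *Adamts5* (3.31), *Adamts12* (3.17), *Adamts7* (1.95), *Adamts10* (1.70), *Adamts15* (1.35) and *Adamts9* (0.455). *Adamts2* was above *Adamts4* in only 6 of 10 libraries, *Adamts12* above *Adamts7* in 6 and *Adamts7* above *Adamts10* in 5, so that these neighbours could not be ordered. *Adamts4* was above *Adamts1*, and *Adamts15* above *Adamts9*, in 10 of 10 libraries. In CD45+ cells *Adamts10* led in 12 of 12 libraries with a median of 2.11 RPKM, followed by *Adamts14* at 0.292 and *Adamts4* at 0.213. It made up 42.4% to 82.6% of the summed level there, against 1.62% to 8.45% in CD45- cells, where *Adamts2* held 22.4% to 37.9% and *Adamts4* 20.3% to 37.9%.

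**Figure D1:**
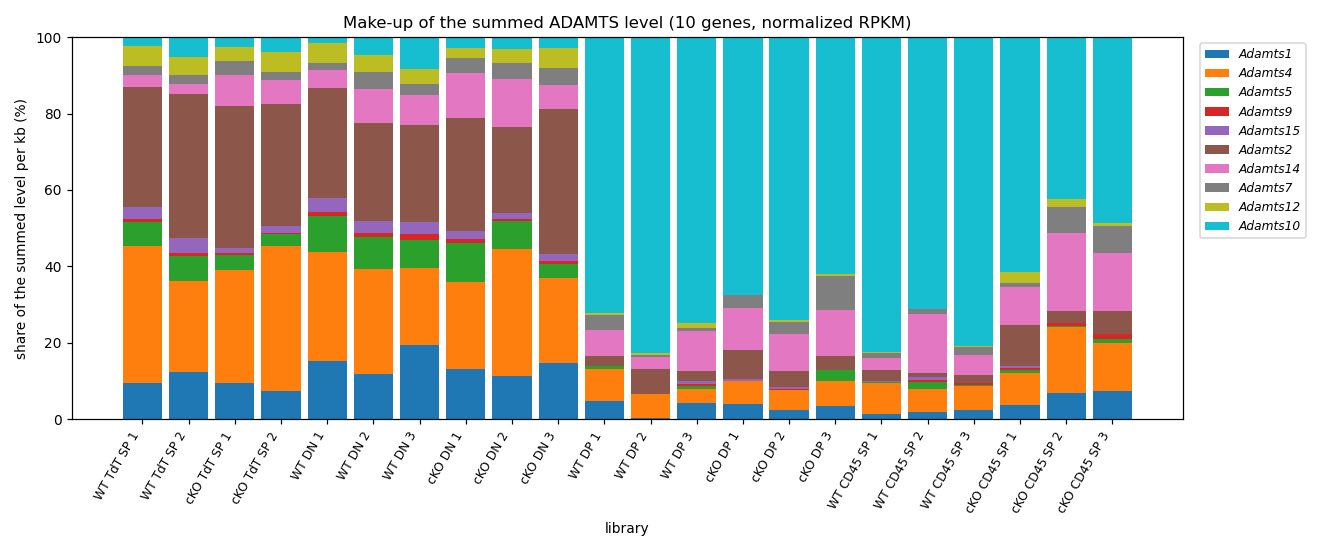
Stacked bars give, for each of the 22 libraries (x axis), the percent of the summed level per kilobase of exon (normalized RPKM, y axis) held by each of the 10 genes; SP is single positive, DN double negative and DP double positive. *Adamts2* and *Adamts4* fill the largest parts of the 10 CD45- bars on the left, and *Adamts10* fills 42.4% to 82.6% of the 12 CD45+ bars on the right.

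The members lie on 8 chromosomes (GRCm38). *Adamts1* (ENSMUSG00000022893, chromosome 16, 85793827 to 85803113, minus strand) and *Adamts5* (ENSMUSG00000022894, chromosome 16, 85858170 to 85901125, minus strand) are neighbours in the same orientation. *Adamts7* (ENSMUSG00000032363, 90163069 to 90208071, plus strand) and *Adamts15* (ENSMUSG00000033453, 30899155 to 30922452, minus strand) both lie on chromosome 9, far apart. *Adamts2* (ENSMUSG00000036545) lies on chromosome 11 from 50602084 to 50807573, and *Adamts4* (ENSMUSG00000006403) on chromosome 1 from 171250421 to 171260637, both on the plus strand. *Adamts10* (ENSMUSG00000024299) lies on chromosome 17 from 33524204 to 33553782 on the plus strand. *Adamts9* (ENSMUSG00000030022, chromosome 6, 92772699 to 92943492, minus strand) shares 1381 exonic bases with *A730049H05Rik* and 424 with *Gm15737*, and *Adamts7* shares 122 with *Tbc1d2b*, all on the opposite strand. The library kit does not mark strand and ambiguous reads were not counted, so reads from these shared bases are missing from the counts of both members.

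Because 9 members moved together between CD45- and CD45+ cells, the bases just upstream of their starts are shown for 1 member of each enzyme class that had an entry in RefSeq's promoter table (GRCm38.p6), in which 5 members were found (*Adamts1*, *Adamts2*, *Adamts9*, *Adamts12*, *Adamts14*). Each run is the 250 bases before the RefSeq start, read 5′ to 3′ on the gene's strand, with capitals marking any match, on either strand, to the TATA box TATAAA, the GC box GGGCGG, the CCAAT box CCAAT, the AP-1 site TGANTCA, the RUNX core TGTGGT or the TEAD core GGAATG.
Adamts1, proteoglycanase, chr16:85803114-85803363, minus strand: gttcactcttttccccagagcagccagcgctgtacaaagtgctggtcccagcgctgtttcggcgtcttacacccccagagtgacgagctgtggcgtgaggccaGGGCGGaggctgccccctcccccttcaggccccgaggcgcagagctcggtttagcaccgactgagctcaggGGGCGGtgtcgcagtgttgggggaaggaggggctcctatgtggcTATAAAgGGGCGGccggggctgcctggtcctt
Adamts2, procollagen N-proteinase, chr11:50601835-50602084, plus strand: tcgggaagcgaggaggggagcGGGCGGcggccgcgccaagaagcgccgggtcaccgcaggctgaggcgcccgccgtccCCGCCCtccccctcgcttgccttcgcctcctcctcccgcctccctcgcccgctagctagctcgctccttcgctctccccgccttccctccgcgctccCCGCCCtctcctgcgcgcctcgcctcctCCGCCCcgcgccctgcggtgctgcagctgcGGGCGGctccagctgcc
Adamts12, COMP-cutting enzyme, chr15:11064523-11064772, plus strand: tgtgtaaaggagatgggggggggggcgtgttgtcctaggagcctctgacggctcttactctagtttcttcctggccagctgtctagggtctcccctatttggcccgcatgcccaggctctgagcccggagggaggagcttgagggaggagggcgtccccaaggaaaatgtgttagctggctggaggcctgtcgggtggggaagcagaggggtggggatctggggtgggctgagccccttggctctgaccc
The *Adamts1* window held 1 TATA box, 32 bases before the start, and 3 GC boxes, and the *Adamts2* window held 5 GC boxes and no TATA box. The *Adamts12* window held none of the 6 motifs. Among all 32851 promoters of this length, 12.4% held the TATA box, 32.7% the GC box, 33.8% the CCAAT box, 6.75% the AP-1 site, 14% the RUNX core and 12.6% the TEAD core. None of the 5 member windows held any of the last 4. Their GC content ran from 63.2% to 78.0%, with a median of 52.4% over all promoters. These are matches of letters, not shown sites.

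To determine how the family differed between stromal cells and leukocytes, both CD45- populations were compared with both CD45+ populations over all 22 libraries (edgeR's quasi-likelihood test; calls needed an adjusted p, by Benjamini-Hochberg, of 0.05 or less with a log2 fold change no smaller than 2 in size). Of the 10 members, 9 were called higher in CD45- cells and 0 lower, where 16.1% of the 15018 genes tested were called higher. The same 9 had every CD45- library above every CD45+ library, as did 11% of all genes tested. The members' median log2 fold change was 6.47, and the median over all genes -0.06. *Adamts10* alone was not called. On the CD45+ libraries alone *Adamts1*, *Adamts5*, *Adamts9*, *Adamts12* and *Adamts15* would not have passed the filter on low counts. They entered the test through the group in which they were higher. Without the filter 9 members were called as well, where 2916 of 30046 genes were called higher.

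Of the proteoglycanases, *Adamts4* had 17.4 to 334 CPM in CD45- libraries (median 86.6) and 0.528 to 3.01 CPM in CD45+ libraries (median 1.03), a log2 fold change of 6.54 (SE 0.362, adjusted p = 1.61e-10). *Adamts1* had 18.3 to 98.8 CPM (median 32.4) against 0.0585 to 1.34 (median 0.549), a log2 fold change of 6.40 (SE 0.358, adjusted p = 1.76e-10). Even the lowest CD45- library of each stood several-fold above the highest CD45+ library. *Adamts5*, with 10.4 to 99.5 CPM (median 26.8) against 0 to 1.03 (median 0.126), had a log2 fold change of 7.40 (SE 0.552, adjusted p = 4.93e-09). *Adamts15*, with 3.36 to 37.6 CPM (median 8.01) against 0 to 0.344 (median 0.0243), had one of 7.51 (SE 0.553, adjusted p = 4.19e-09). For this gene, 11 of 12 CD45+ libraries had fewer than 3 counts and all 12 held 13 counts together, so the fitted fold rests on few reads. *Adamts9*, the least abundant per length in CD45- cells, had 3.14 to 19.6 CPM (median 5.70) against 0 to 0.384 (median 0.129) and a log2 fold change of 5.67 (SE 0.476, adjusted p = 2.1e-08). *Adamts5* fell below 3 counts in 7 CD45+ libraries and *Adamts9* in 6.

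The procollagen N-proteinases were both higher in CD45- cells but by different amounts. *Adamts2* had 42.5 to 571 CPM in CD45- libraries (median 239) and 0.475 to 3.08 CPM in CD45+ libraries (median 1.09), a log2 fold change of 7.56 (SE 0.382, adjusted p = 7.02e-11), the highest of the family. *Adamts14* had 7.16 to 32.1 CPM (median 26.1) against 0.481 to 5.39 (median 1.52), a log2 fold change of 3.74 (SE 0.369, adjusted p = 1.57e-07), the lowest of the 9 called. Its highest CD45+ value, 5.39 CPM, was that of wild type CD45 single positive replicate 2. Without that library its log2 fold change was 4.17.

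Of the enzymes that cut COMP, *Adamts12* had 4.13 to 62.6 CPM in CD45- libraries (median 19.7) and 0 to 0.549 CPM in CD45+ libraries (median 0.107), with a log2 fold change of 7.46 (SE 0.482, adjusted p = 8.47e-10). It was under 3 counts in 9 of 12 CD45+ libraries. *Adamts7* had 3.41 to 28.7 CPM (median 12.3) against 0.106 to 1.86 (median 0.514) and a log2 fold change of 4.60 (SE 0.381, adjusted p = 1.8e-08). All 9 calls were also made in the 11 libraries of each genotype alone.

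*Adamts10* was the exception. It had 6.78 to 25.3 CPM in CD45- libraries (median 9.28) and 7.37 to 26.4 CPM in CD45+ libraries (median 11.5), so the groups overlapped over nearly their whole ranges. The log2 fold change was 0.15, with a 95% interval from -0.22 to 0.52 (adjusted p = 0.465), an interval that excludes every fold called for the other members. Its CD45+ counts were not those of a few libraries, since each of the 12 held at least 115 counts.

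**Figure D2:**
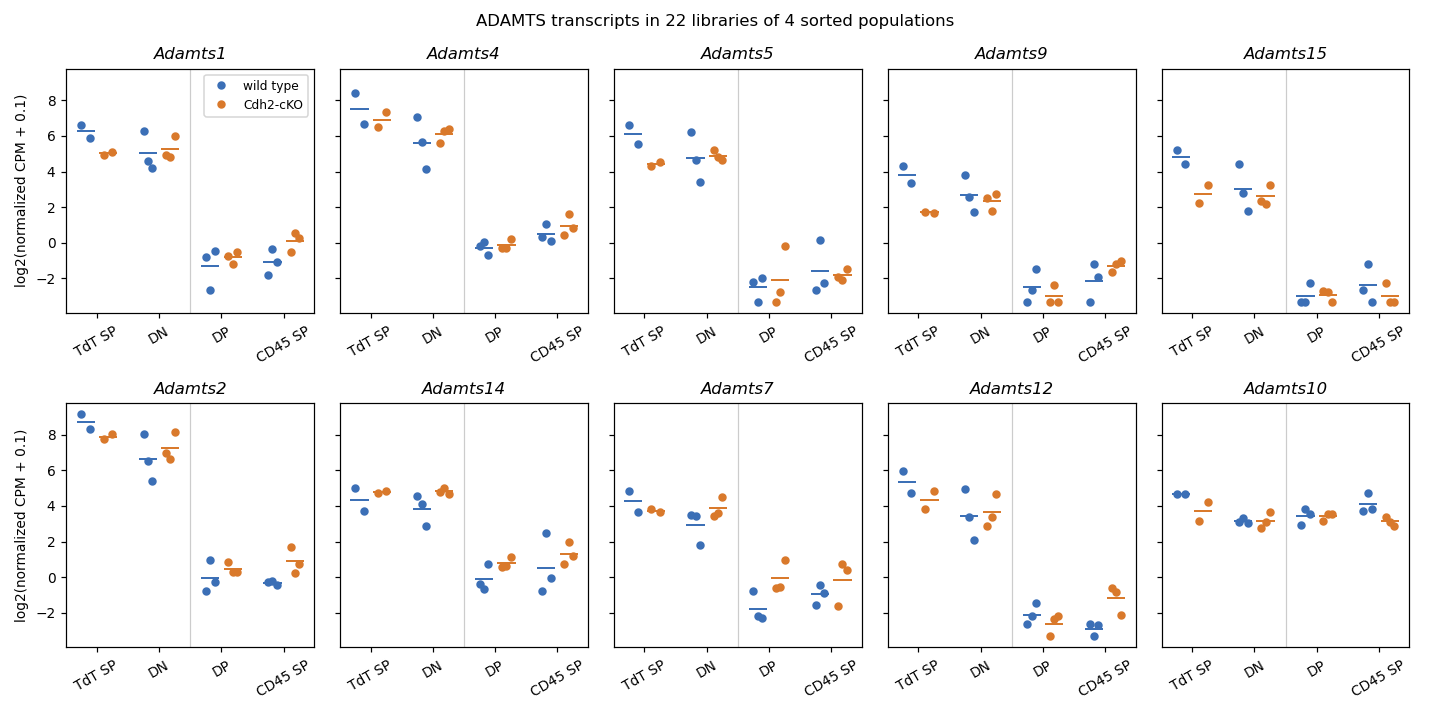
Points are libraries and short lines their group means on the log2 scale; the x axis gives the 4 populations (SP single positive, DN double negative, DP double positive), the y axis log2 of the normalized CPM plus a pseudocount of 0.1, and colors the 2 genotypes as labelled. In 9 of 10 panels all CD45- points lie above all CD45+ points, to the right of the grey line, while the *Adamts10* points overlap.

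The rest of the pathway was read from lists of the remaining ADAMTS genes, the ADAMTS-like genes, substrates, and regulators. Of all genes tested, 16.1% were called higher in CD45- cells, the share to set beside each list. Of the 9 remaining ADAMTS genes, 5 passed the filter and 4 of those were called higher in CD45- cells, none lower (median log2 fold change 3.66). *Adamts16* had a log2 fold change of 7.63 (SE 0.621, adjusted p = 1.46e-08), *Adamts8* one of 3.66 (SE 0.431, adjusted p = 1.38e-06) and *Adamts3*, the other procollagen N-proteinase, one of 4.82 (SE 0.569, adjusted p = 1.41e-06). *Adamts6*, the closest relative of *Adamts10*, had one of 1.68 (SE 0.328, adjusted p = 2.54e-04), under the fold threshold. Of the 7 ADAMTS-like genes, which lack a protease domain, 6 were tested and 4 called higher, none lower. *Adamtsl1* had a log2 fold change of 6.28, *Adamtsl3* 3.46 and *Adamtsl2* 5.13, whereas *Adamtsl4* had -1.18 (adjusted p = 8.8e-04), under the threshold in the other direction.

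Most tested substrates were higher in CD45- cells too. Of 13 listed, 9 were tested and 7 called higher in CD45- cells, none lower (median log2 fold change 7.21), where 16.1% of all genes tested were called higher. The proteoglycan *Bgn* had a log2 fold change of 7.48, and the collagen chains *Col1a2* and *Col1a1* had 7.72 and 7.51. Both collagen genes are also among the fibroblast markers summed above, so their difference is no separate observation. *Vcan*, which encodes versican, was called with a lower fold of 2.12 (SE 0.28, adjusted p = 5.06e-06), since CD45+ libraries had 5.27 to 25.6 CPM of it against 23.2 to 180 in CD45- libraries. *Acan*, encoding aggrecan, did not pass the filter, with at most 0.823 CPM in any CD45- library. *Comp* had at most 5.21 CPM and a log2 fold change of -0.58 (SE 0.698, adjusted p = 0.488). Of 14 inhibitors, convertases, cofactors and clearance genes, 13 were tested and 7 called higher, none lower (median 2.55). *Fbln1*, a cofactor of ADAMTS1, had a log2 fold change of 7.13, the inhibitor *Timp3* 6.53 and the convertase *Pcsk5* 7.28. *Furin*, the convertase that removes the propeptide of many members, had -1.56 (SE 0.212, adjusted p = 6.83e-06), with 44.0 to 166 CPM in CD45- and 105 to 391 in CD45+ libraries.

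To ask whether TdT marked cells that differ in ADAMTS expression from their TdT- neighbours, TdT single positive cells were compared with double negative cells. No member was called, where 0.26% of all genes tested were. All 10 log2 fold changes were above 0, with a median of 0.665 against 0.0735 for all genes. *Adamts10* had 25 and 25.3 CPM in the wild type TdT single positive libraries and 8.74 and 18.7 in those labelled Cdh2-cKO. In double negative libraries it had 8.60, 9.83 and 8.20 CPM in wild type and 6.78, 8.34 and 12.4 in Cdh2-cKO. Of the 4 TdT single positive libraries 3 were thus above every double negative library. Its log2 fold change of 1.04 (SE 0.256, adjusted p = 0.0473) passed on the p-value but not on the fold. By the p-value alone, 1.23% of all genes tested were higher in TdT single positive cells. This p-value depended on single libraries: it was 0.251 without Cdh2-cKO TdT single positive replicate 2, stayed at or below 0.05 in only 6 of the 22 fits that left out 1 library, and was 0.44 in wild type and 0.405 in Cdh2-cKO libraries alone.

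*Adamts4* had 334 and 103 CPM in wild type and 88.7 and 161 in Cdh2-cKO TdT single positive libraries. In double negative libraries it had 133, 50.3 and 17.4 CPM in wild type and 49.2, 76.5 and 84.5 in Cdh2-cKO. The groups overlapped only through the highest wild type double negative library, and the log2 fold change was 1.27 (95% interval 0.37 to 2.17, adjusted p = 0.119). It ran from 0.72 without wild type TdT single positive replicate 1 to 1.76 without wild type double negative replicate 1. *Adamts2* had 571 and 317, and 215 and 264 CPM in TdT single positive libraries of wild type and Cdh2-cKO. It had 262, 90.9 and 42.5, and 124, 99.9 and 282 CPM in their double negative libraries. Its log2 fold change was 1.13 (95% interval 0.22 to 2.04, adjusted p = 0.169), and that of *Adamts12* was 1.06 (95% interval 0.01 to 2.10, adjusted p = 0.257). Without the same 2 libraries *Adamts12* ran from 0.69 to 1.59. By voom, the adjusted p was 0.0288 for *Adamts2*, 0.0334 for *Adamts4* and 0.0458 for *Adamts10*. Their log2 fold changes were 1.39, 1.26 and 0.93, all under the fold threshold. The share of all genes that voom put at 0.05 or less, whatever the fold, was not counted. The remaining 6 members had log2 fold changes from 0.13 (*Adamts9*) to 0.79 (*Adamts15*), with intervals that included 0. None of the 33 tested genes of the 4 pathway lists was called in either direction. Among them, *Adamts3* had a log2 fold change of 1.57 by edgeR (SE 0.654, adjusted p = 0.201). The study lists *Adamts3* among the genes most raised in TdT single positive cells, with a larger fold. Its table names double negative cells as the reference, while its methods describe tests of each population against the mean of all others. In the Cdh2-cKO libraries alone, 5 of the members turned to values below 0 (*Adamts1*, *Adamts5*, *Adamts7*, *Adamts9* and *Adamts14*, from -0.04 to -0.72), while all 10 were above 0 in wild type alone.

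Sums of marker RNA differed between the libraries of both populations along with these levels. Fibroblast markers summed to 11600 to 44300 CPM in TdT single positive and 3230 to 23600 in double negative libraries. Pericyte and smooth muscle markers (*Rgs5*, *Pdgfrb*, *Cspg4*, *Myh11*, *Des*, *Acta2*) summed to 1100 to 3900 CPM (median 2510) and 293 to 1970 (median 1120), with the highest value in wild type TdT single positive replicate 1 and the lowest in wild type double negative replicate 3. Leukocyte markers summed to 40.6 to 2930 and 60.5 to 4600 CPM. Listed epithelial markers (*Krt8*, *Krt18*, *Krt19*, *Epcam*, *Cdh1*) summed to 33.8 to 933 and 505 to 1990 CPM. This sum was carried by *Krt18* (means 452 and 879 CPM) and *Krt8* (139 and 223), while *Epcam* was near 0 (0.114 and 0.368) and *Cdh1* (19.4 and 22.7) was lower than in double positive and CD45 single positive cells (225 and 185). The part of these marker sums in the differences was not tested. In bulk libraries fewer cells of a type and less RNA per cell cannot be told apart. Wild type TdT single positive replicate 1, with the most fibroblast marker counts, was the highest CD45- library for 9 of 10 members. Wild type double negative replicate 3, with the least fibroblast and the most leukocyte marker counts, was the lowest for 8 of 10. Between the highest and the lowest CD45- library *Adamts4* varied 19.2-fold, *Adamts12* 15.1-fold, *Adamts2* 13.4-fold and *Adamts10* 3.73-fold.

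Members were therefore also expressed per 10000 counts of the 5 fibroblast markers, as a description without a test. Most of these counts, 83.4% to 91.3% in TdT single positive and 68.1% to 82.0% in double negative libraries, were those of *Col1a1* and *Col1a2*. Both collagen genes had log2 fold changes above 0 between the populations (1.43, adjusted p = 0.0907, and 1.54, adjusted p = 0.0727, not called). On this scale *Adamts2* was at 129 and 126 in TdT single positive and 111, 122 and 131 in double negative libraries of wild type, and varied 2.15-fold over all 10. *Adamts12* varied 2.17-fold over all 10 libraries, from 9.98 to 21.7. *Adamts14* varied 9.03-fold, *Adamts9* 7.08-fold and *Adamts10* 6.97-fold. The order of the populations was not that of the CPM values for every member. *Adamts1* had 22.3, 23.5, 26.6 and 15 per 10000 fibroblast marker counts in TdT single positive libraries and 31.8 to 56.5 (median 41.6) in double negative libraries. *Adamts9* had 4.43, 4.04, 2.75 and 1.39 in TdT single positive libraries and 4.98 to 9.88 (median 6.67) in double negative libraries. For these 2 of the 10 members every TdT single positive library lay below every double negative library, as for 4.25% of all genes tested. This order depended on the collagen genes in the sum. Per 10000 counts of *Pdgfra*, *Dcn* and *Lum* alone, a denominator chosen after seeing the data, it held for 0 of the 10 members and for 0.34% of all genes tested. *Adamts1* then had 142 to 213 (median 173) in TdT single positive and 101 to 235 (median 181) in double negative libraries. *Adamts9* had 16 to 34.3 (median 23.2) and 24.4 to 32.6 (median 25.9). The even level of *Adamts2* in wild type was also lost, with 995 and 757 in TdT single positive and 619, 387 and 413 in double negative libraries. Within this denominator *Dcn* had the highest means, 2300 CPM in TdT single positive and 1650 in double negative libraries. *Lum* had 857 and 550 and *Pdgfra* 178 and 94.2, so this sum too was led by 1 gene. Endothelial markers (*Pecam1*, *Cdh5*, *Kdr*, *Tek*, *Emcn*) summed to 50 to 156 CPM in TdT single positive and 36.1 to 313 CPM in double negative libraries; their part, and that of the pericyte and smooth muscle markers, in these ratios was not tested.

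**Figure D3:**
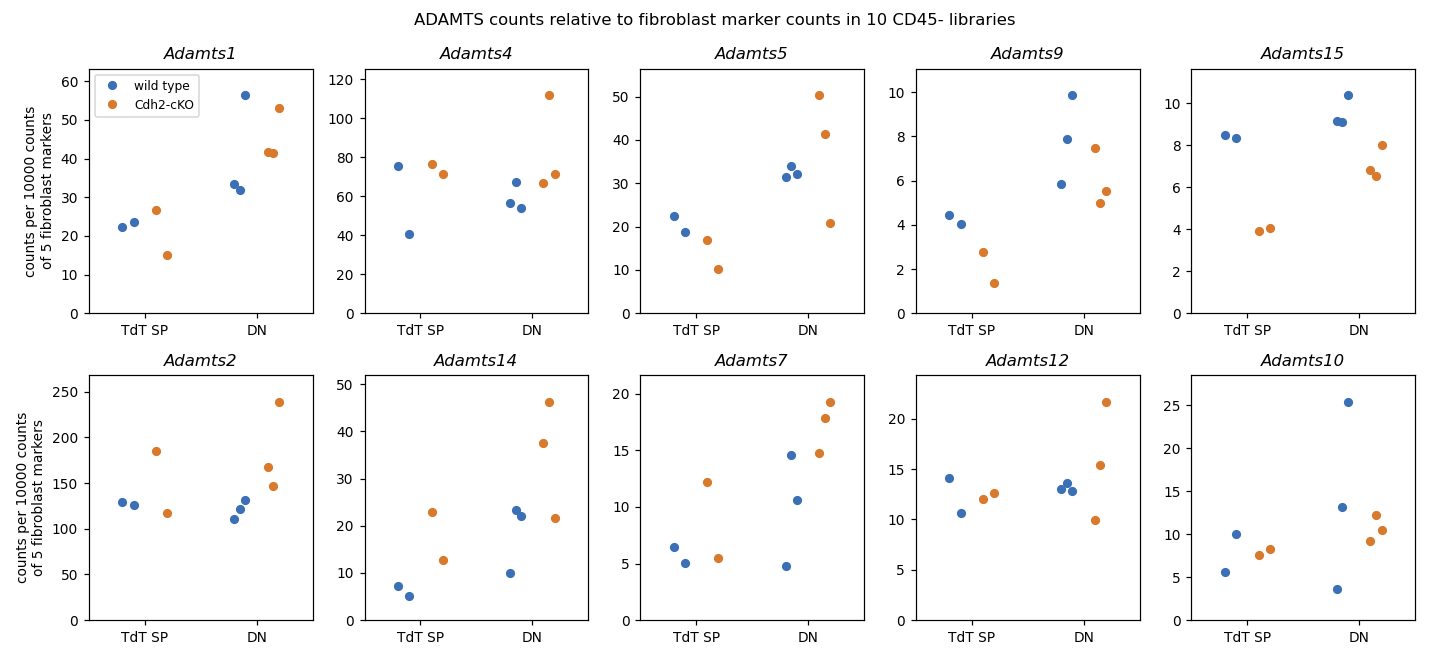
Points are the 10 CD45- libraries; the y axis, which differs between panels and starts at 0, gives counts of the member per 10000 counts of 5 fibroblast markers (*Col1a1*, *Col1a2*, *Pdgfra*, *Dcn*, *Lum*), the x axis TdT single positive (TdT SP) and double negative (DN) libraries, and colors the genotype as labelled. *Adamts1* and *Adamts9* are lower in all 4 TdT single positive libraries than in all 6 double negative ones, and *Adamts2* lies between 111 and 131 in the 5 wild type libraries. Neither held per count of the 3 markers other than the collagens.

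Among leukocytes, double positive cells were compared with CD45 single positive cells to see whether the TdT+ fraction of CD45+ cells differed in ADAMTS expression. No member was called, where 0.00666% of all genes tested, 1 gene, was. Log2 fold changes ran from -1.75 to -0.00189. *Adamts4* had 0.772, 0.936 and 0.528 CPM in wild type and 0.717, 0.728 and 1.08 in Cdh2-cKO double positive libraries. In CD45 single positive libraries it had 1.14, 1.95 and 0.970 CPM in wild type and 1.26, 3.01 and 1.67 in Cdh2-cKO. The ranges overlapped only between 0.970 and 1.08 CPM, and the log2 fold change was -1.04 (95% interval -2.02 to -0.07, adjusted p = 1). *Adamts9*, with at most 6 counts in any of these libraries, had -1.75 (95% interval -3.40 to -0.11, adjusted p = 1), and ran from -3.11 without Cdh2-cKO double positive replicate 2 to -1.27 without wild type CD45 single positive replicate 2. *Adamts10* was the most abundant member in these cells. It had 7.55 to 14.2 CPM (median 11.5) in double positive and 7.37 to 26.4 (median 11.7) in CD45 single positive libraries. The interval of its log2 fold change was -0.69 to 0.30.

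Libraries labelled Cdh2-cKO were compared with wild type libraries within CD45- and within CD45+ cells, with no fold threshold. In CD45- cells no member was called, where 0% of all genes tested were (edgeR; 1537 genes had an unadjusted p under 0.05, 2 of them members, and DESeq2 called 124 genes, none a member). *Adamts9* had 19.6, 10.2, 13.8, 5.88 and 3.19 CPM in wild type CD45- libraries and 3.19, 3.14, 5.52, 3.39 and 6.54 in Cdh2-cKO ones, each group given as TdT single positive and then double negative. Its log2 fold change was -1.40 (95% interval -2.58 to -0.23, adjusted p = 0.405). *Adamts15* had 37.6, 21, 21.6, 6.81 and 3.36 CPM in wild type and 4.56, 9.20, 5.05, 4.46 and 9.46 in Cdh2-cKO, and a log2 fold change of -1.42 (95% interval -2.63 to -0.21, adjusted p = 0.406), which became -0.89 without wild type double negative replicate 1. For both genes the highest values were wild type, and the ranges overlapped through the wild type double negative libraries. The comparison averaged TdT single positive cells, where Cre had acted, with double negative cells. Neither population was tested alone. Per 10000 fibroblast marker counts, *Adamts15* ran from 8.34 to 10.4 in wild type and from 3.93 to 8.02 in Cdh2-cKO libraries, so that every Cdh2-cKO library lay below every wild type one. It was the only member of which this held, as it did for 0.0533% of all genes tested. Per count of *Pdgfra*, *Dcn* and *Lum* alone it held for 0 members and 0.04% of genes, and *Adamts15* ran from 29.0 to 65.6 per 10000 in wild type and from 24.4 to 46.9 in Cdh2-cKO. With that denominator *Adamts7* (26.4 to 50.1 in wild type, 52.8 to 98.0 in Cdh2-cKO) and *Adamts14* (30.9 to 74.0 and 95.8 to 227) were higher in every Cdh2-cKO library, as were 0.899% of all genes tested, which neither was per count of the 5 markers. *Adamts5* had a log2 fold change of -1.04 (95% interval -2.31 to 0.23; -0.52 without wild type double negative replicate 1), and *Adamts14* one of 0.55 (95% interval -0.50 to 1.61). Medians of marker sums differed between the labels in CD45- libraries, with ranges that overlapped. The listed epithelial markers summed to 33.8 to 1400 CPM in wild type (median 566) and to 928 to 1990 in Cdh2-cKO (median 1060). Fibroblast markers had medians of 23600 and 11600 CPM, and pericyte and smooth muscle markers 1970 and 1100. For both lists the Cdh2-cKO range lay within that of wild type. It was 6810 to 22500 within 3230 to 44300 CPM for fibroblast markers, and 708 to 2290 within 293 to 3900 for the others. Leukocyte markers had medians of 797 CPM in wild type and 198 in Cdh2-cKO, and endothelial markers 156 and 67.9. Skeletal muscle markers (*Ckm*, *Acta1*, *Mylpf*, *Tnnt3*, *Mb*) had medians of 12.3 and 59.2 CPM. The part of these sums in the values was not tested.

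In CD45+ cells the comparison of the genotypes again called 0 members and 0% of all genes tested (edgeR; 1299 genes, 2 of them members, had an unadjusted p under 0.05, and DESeq2 called 83 genes, none a member). *Adamts7* had 0.475, 0.117, 0.106, 0.241, 0.630 and 0.431 CPM in wild type and 0.552, 0.582, 1.86, 0.220, 1.54 and 1.22 in Cdh2-cKO libraries, double positive before CD45 single positive. The log2 fold change was 1.62 (95% interval 0.48 to 2.76, adjusted p = 0.43). It ran from 1.22 without Cdh2-cKO double positive replicate 3 to 2.12 without wild type double positive replicate 1. Counts were at most 31 in a library. Wild type double positive replicates 2 and 3 had 2 each, under the floor of 3. Median sums of fibroblast markers were 62.6 CPM in wild type and 86.1 in Cdh2-cKO CD45+ libraries. Those of the listed pericyte and smooth muscle markers were 63.2 and 98.8. The latter sum was carried by *Cspg4*, with means of 57.5 CPM in double positive and 52.9 in CD45 single positive cells. Unlike the other markers of that list, *Cspg4* was not lower there than in double negative cells (36.6). The part of these sums was not tested. *Adamts10* had a log2 fold change of -0.55 (95% interval -1.04 to -0.06, adjusted p = 0.527), with 7.55 to 26.4 CPM in wild type and 7.37 to 11.5 in Cdh2-cKO libraries. The value of 26.4 was that of wild type CD45 single positive replicate 2, the other 5 wild type libraries had 7.55 to 14.2 CPM, and without that library the log2 fold change was -0.35. No difference between genotypes in the CD45 effect passed the test (0 members and 0% of genes called by edgeR; 1157 genes had an unadjusted p under 0.05, and DESeq2 called 30). The smallest p was that of *Adamts1*, whose CD45 effect was lower by a log2 of -1.40 in Cdh2-cKO (95% interval -2.79 to -0.01, adjusted p = 0.643). The TdT effect within CD45- cells differed by genotype for 0.00666% of genes tested and for 0 members. All 10 estimates of that difference were below 0, from -1.67 to -0.52, with intervals that included 0, so TdT effects of like size and effects several-fold smaller in Cdh2-cKO were both within the error.

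**Figure D4:**
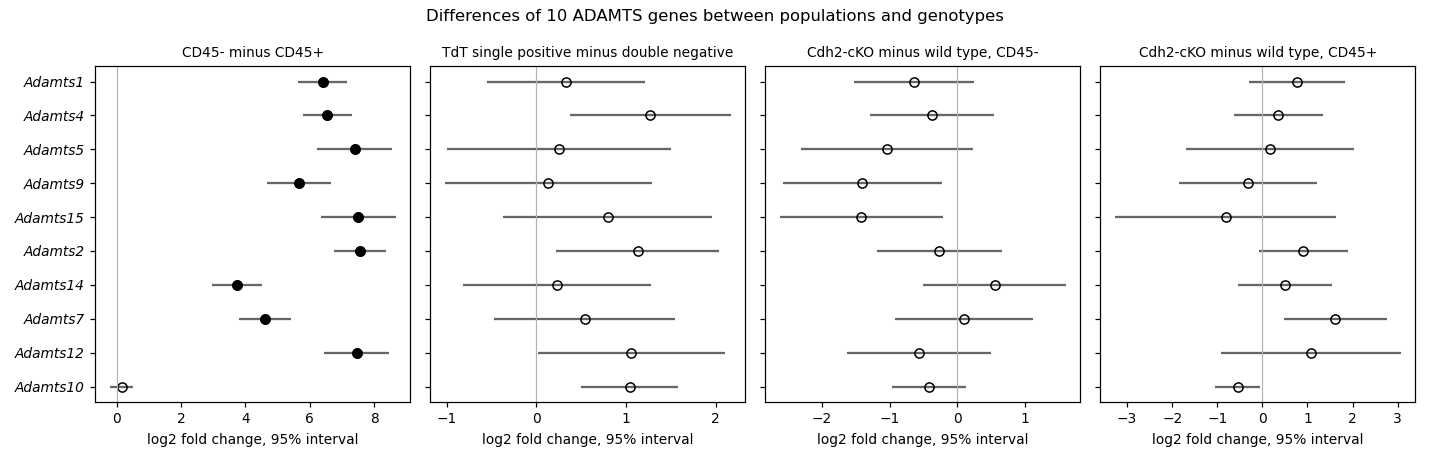
Each panel gives, for the 10 members, the log2 fold change (x axis; the scale differs between panels) with its 95% interval from edgeR's quasi-likelihood fit of all 22 libraries; filled points are called. The 9 filled points are all in the comparison of CD45- with CD45+ cells, at 3.74 to 7.56, and no member is filled in the panels for TdT or for genotype.

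The genes most like each member were sought over the 10 CD45- libraries, by Pearson's r of log2 normalized CPM among 9801 genes. All points share the same libraries, whose fibroblast and leukocyte marker sums differed, and r is given as a description. *Adamts12* was most like *Bgn*, encoding biglycan (r = 0.996), *Adgrl1* (0.986) and *Col6a1*, a collagen VI chain (0.980). *Adamts2* was most like *Slit3* (0.990), *Dkk3* (0.985) and *Spon1* (0.983), and *Adamts15* like *Lgr5* (0.988), *Pth1r*, the parathyroid hormone receptor (0.987), and *Lum*, encoding lumican (0.986). *Adamts9* was most like *Glis2* (0.979), *Mmp3*, encoding stromelysin (0.970), and *Dnm1* (0.968). The leading genes of the other members were *Cog3* for *Adamts1* (0.989), *Cpxm2* for *Adamts4* (0.984), *Qsox1* for *Adamts7* (0.973), *Kctd5* for *Adamts5* (0.958), *Srf* for *Adamts10* (0.957) and *Rin1* for *Adamts14* (0.952). Between members, r was highest for *Adamts2* with *Adamts12* (0.958) and *Adamts4* with *Adamts12* (0.949), and lowest for *Adamts10* with *Adamts14* (0.059) and *Adamts9* with *Adamts14* (0.156). Of the 9 members higher in CD45- cells, *Adamts14* was thus the one whose level followed the others least.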

How the data were processed

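RNA-seq was made from 22 libraries of sorted tumor stroma (SMARTer kit, which does not mark strand). Per the labels and methods, the authors mapped reads to GRCm38 with STAR 2.0.4b, and featureCounts gave each Ensembl gene its uniquely mapped reads, ambiguous ones being dropped. The deposited counts are raw whole numbers per gene. The deposited CPM are those counts scaled by the authors to the library total, and the deposited RPKM are CPM per kilobase of gene length; both served only as a check, their largest relative deviation from the counts being 5.1e-14. Discarding ambiguous reads lowers genes that overlap others. Symbols came from GENCODE M21 (40340 of 41388 genes matched), promoters from RefSeq (GRCm38.p6).

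The 355 rRNA genes were left out, and a gene was kept when 2 or more libraries exceeded 1 CPM. edgeR 4.0.16 in R 4.3.3 fitted a quasi-likelihood model with TMM factors and 1 mean per population and genotype to all 22 libraries, and p-values were adjusted over all 15018 genes. Between genotypes no fold threshold was used. Standard errors were derived from the quasi-likelihood F. Normalized CPM use TMM-scaled library sizes. Alternatives were the study's voomWithQualityWeights (limma 3.58.1), DESeq2 1.42.0, RLE factors, no low-count filter, a replicate block, each genotype alone and leaving out libraries, and, for ratios to fibroblast markers, leaving out the collagen chains (chosen after seeing the data). Replicate libraries differed by at least 48.4 times the counting noise, so no library was counted as a copy of another. Genes outside the members were named by rule: from each pathway list the 3 with the smallest adjusted p between CD45- and CD45+ cells and 1 more, and the 3 most like each member among genes with a median of at least 5 CPM. The substrates *Acan* and *Comp* were named after their values were seen. The members, lists and rules were chosen with earlier results of these data known.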

Additional observations from a re-analysis of the deposited data

How the results depend on the processing

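The 9 calls between CD45- and CD45+ cells were made under all 31 alternatives. No member was called in the other 6 comparisons under any alternative but 1: without the fold threshold, 1 member (*Adamts10*) was called between TdT single positive and double negative cells. Voom, with no regard to the fold, put 3 members at an adjusted p of 0.05 or less there. The share of all genes that did so was not counted, so the 3 cannot be set against it. Deviations of same-numbered libraries had a median r of 0.00828 in wild type (-0.296 to 0.593) and 0.0543 in Cdh2-cKO (-0.132 to 0.174). Those of differently numbered libraries had -0.0306 (-0.593 to 0.428) and -0.0146 (-0.193 to 0.234). Since each group held few replicates and the populations differ, these values cannot decide whether the numbers pair samples. With a replicate block the counts of members called were 9 and, for the other 6 comparisons, 0.

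Of 1130 refits of single members, 18 turned the sign, of values that were not called. Between TdT single positive and double negative cells, Cdh2-cKO libraries alone gave log2 fold changes of -0.344 for *Adamts1*, -0.507 for *Adamts5*, -0.223 for *Adamts7*, -0.716 for *Adamts9* and -0.042 for *Adamts14*; without wild type double negative replicate 3 and wild type CD45 single positive replicate 2 together, *Adamts9* had -0.056. Leaving out each library in turn gave -0.066 to 0.767 for *Adamts5*, -0.144 to 0.506 for *Adamts9* and -0.174 to 0.482 for *Adamts14*, the lowest each time without wild type TdT single positive replicate 1. For the genotypes in CD45- cells it gave -0.565 to 0.224 for *Adamts2*, -0.68 to 0.171 for *Adamts4* and -0.137 to 0.449 for *Adamts7* (-0.081 without the 2 named libraries), and for CD45- against CD45+ cells -0.01 to 0.264 for *Adamts10* (0.326 without the 2 named libraries). The cause was not tested. Per fibroblast marker count, leaving the collagen chains out of the 5 markers, an alternative chosen after seeing the data, took the members with every TdT single positive library lowest from 2 to 0 and those with every Cdh2-cKO library lowest from 1 to 0.

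Counts over all genes moved more. Between TdT single positive and double negative cells edgeR called 39 genes, voom 80, DESeq2 130, the fits without the low-count filter or with the block 23 each, no fold threshold 284, wild type alone 0 and Cdh2-cKO alone 656. For the genotype difference of the TdT effect these were 1 by edgeR, 101 without the filter, 2 with RLE factors, 0 by voom and 558 by DESeq2. Over all alternatives, single libraries left out included, these ran from 0 to 656 and from 0 to 637. DESeq2 called 6 genes between double positive and CD45 single positive cells, where edgeR called 1. No filter gave 4791 and no fold threshold 9570 genes between CD45- and CD45+ cells, where edgeR called 3709. With 2 or 3 libraries a group, the 95% intervals between genotypes in CD45- cells reach past a log2 change of 1 in size for 9 members, so changes of that size are within the error.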
